A study of Drosophila melanogaster with 2 samples.

Results

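The genes described here are 57 components of 5 developmental signalling pathways, Notch, Hedgehog, Wnt, BMP and EGFR, among 13968 protein-coding genes on the main chromosome arms. They were taken from a list of names that uses no measured value in its rule but was drawn up with earlier results of these data known. They comprise 9 Notch, 9 Hedgehog, 17 Wnt, 15 BMP and 7 EGFR pathway genes. The BMP group also takes in genes of activin signalling, such as Actbeta. By role there were 13 ligands or secreted antagonists, 17 receptors or other membrane proteins, 13 cytoplasmic or processing components and 14 transcription factors or cofactors. For each gene the question was whether the transcription factor Ken was recovered at its start and inside it, and how strongly. A gene was counted when the summit of a peak lay within 1000 bp of any of its annotated transcription start sites (TSSs).

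The peaks came from ChIP-seq of whole Drosophila melanogaster embryos, 0 to 24 h old, of the strain ken-GFP, in which Ken is made as a fusion with eGFP. Both libraries belonged to 1 group, 2 biological replicates of these embryos, so every value stands beside other genes and not beside another genotype or stage. Precipitation used an antibody against GFP by the description, while another label names ken as the antibody, and chromatin was sonicated to 200 to 800 bp. A control experiment is named as possible and was not analysed here. Embryos of all ages were taken whole, so recovery in few cells and weak recovery in many cannot be told apart.

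Ken, a zinc finger protein with a BTB domain, is known in flies to repress some targets of JAK-STAT signalling. In the pathways listed, a secreted or membrane-bound ligand engages a receptor, and a DNA-binding factor with its cofactors changes transcription in the nucleus. Cytoplasmic proteins pass the state of the receptor on, except for Notch, where the cleaved receptor itself joins the factor. All 5 pathways pattern the embryo, and many of their genes are long, with tissue-specific regulation and, in some, several start sites.

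The conservative list made from both replicates held 2087 peaks, of which 2031 lay on the main arms and 1731 of those within 1000 bp of a protein-coding TSS. The thresholded lists of the single replicates held 1544 peaks in replicate 1 and 1819 in replicate 2. Ranked lists, which also hold candidates that did not pass, held 137061 and 124478. Signal is the authors' peak strength on an unstated scale and is used here to rank peaks within a list. Conservative peaks went down to a signal of 2.08, so signal alone did not set which candidates passed. The number of reads was unknown, so no interval for counting error is given.

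Of the 57 signalling genes, 13 had a conservative summit within 1000 bp of a TSS. They were Wnt6 and Actbeta among the ligands, smo, boi, fz3, fz4 and ed among the receptors and membrane proteins, mib1, Axn and S among the components, and Su(H), mam and shn among the transcription factors and cofactors. That is 22.8% of the members, against 17.2% of all protein-coding genes. A candidate of any rank lay near a TSS of 49 members, of which 13, 26.5%, had a conservative summit, against 19.2% of the 12473 genes with such a candidate. At that share 9.43 of the 49 members would be counted, and 10.8 members at the shares of all genes with the same number of TSSs. The members had more room than other genes, since 42.1% of them had over 1 TSS, against 26.5% of all genes, and their median length was 12.4 kb, against 2.16 kb. Of members with 1 TSS 6 of 33 had a summit, against 14.7% of all such genes. With 2 TSSs it was 4 of 14 against 22.2%, and with 3 or more it was 3 of 10 against 28.2%. The count therefore stood a few genes above the background, a difference that was not tested.

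**Figure D1:**
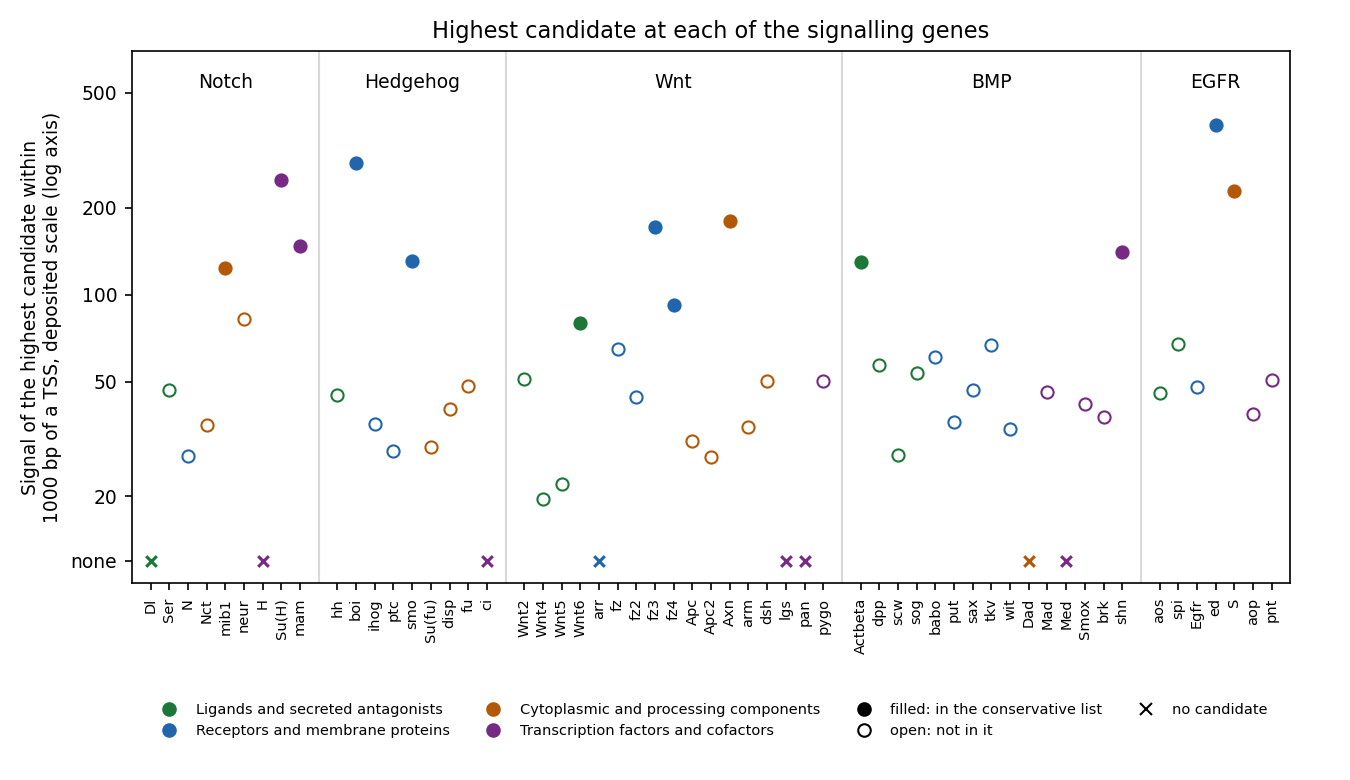
Signal of the strongest candidate within 1000 bp of a TSS (y axis, log scale, deposited units) for each of the 57 signalling genes (x axis, by pathway, coloured by role), filled where the summit is in the conservative list, open where it is not and a cross where there was no candidate. The 13 filled points run from 79.89 at Wnt6 to 388.64 at ed, the 36 open points from 19.6 at Wnt4 to 82.7 at neur, and 8 genes have a cross.

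The sequence under the summits is shown for 6 members, to let the presence and absence of a short word be seen beside the signals. They are the strongest of the peaks with a summit outside UTRs, leaving out mam and shn, whose chromosome arm is not printed here. Each stretch is the plus strand of dm6, from the RefSeq release 6 assembly, with 50 bases on each side of the summit, and shorter for Su(H) and S, where it stops at an annotated transcript. Capitals mark the word CGATA or its reverse complement TATCG, which together make the palindrome TATCGATA.
ed, chr2L:4030640-4030740: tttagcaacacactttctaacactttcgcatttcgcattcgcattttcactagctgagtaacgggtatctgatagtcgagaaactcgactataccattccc
Su(H), chr2L:15039398-15039487: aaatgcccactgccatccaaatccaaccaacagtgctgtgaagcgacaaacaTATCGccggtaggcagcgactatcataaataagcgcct
S, chr2L:1077861-1077947: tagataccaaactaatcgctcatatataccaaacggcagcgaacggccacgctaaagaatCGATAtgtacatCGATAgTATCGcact
Axn, chr3R:30022242-30022342: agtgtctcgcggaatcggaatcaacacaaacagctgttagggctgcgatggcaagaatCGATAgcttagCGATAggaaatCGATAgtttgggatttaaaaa
Actbeta, chr4:1084835-1084935: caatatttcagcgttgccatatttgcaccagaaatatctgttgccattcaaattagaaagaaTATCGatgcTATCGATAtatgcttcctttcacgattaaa
fz4, chrX:7110335-7110435: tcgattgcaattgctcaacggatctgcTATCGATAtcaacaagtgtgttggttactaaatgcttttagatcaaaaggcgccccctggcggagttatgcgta
The 6 stretches run from the strongest of these peaks, at ed, to the weakest, at fz4. Those of S and Axn hold 3 separate copies each, those of Actbeta and fz4 hold the whole palindrome, that of Su(H), cut short, holds 1 copy, and that of ed holds none. The word was also absent at shn and Wnt6, which are not printed. Within 100 bp of the Su(H) summit, unprinted bases included, there were 4 copies, with both strands of 1 palindrome counted.

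Among the 13 ligands and secreted antagonists 2 had a conservative summit near a TSS, 15.4%, against 17.2% of all protein-coding genes. Actbeta, an activin-type ligand on chromosome 4 (FBgn0024913), had a peak at 1084680 to 1085089. Its summit was 89 bp upstream and intergenic, which here means outside annotated protein-coding genes. The conservative list gave it 129.64, with 75.908 in replicate 1 and 66.585 in replicate 2. Few genes of that chromosome were reached: 8 of its 80 genes had any candidate near a TSS and 2 had a conservative summit, and of the 4 members there Actbeta was the 1 counted. Wnt6, a Wnt ligand on 2L (FBgn0031902), had the weakest of the 13 peaks, at 7333159 to 7333568, 350 bp upstream and intergenic. The conservative signal of 79.89 stood beside 35.196 for replicate 1 and 45.916 for replicate 2, and neither replicate's own thresholded list held it. The ligands without a summit were Dl and Ser of the Notch pathway, hh, the Wnt ligands Wnt2, Wnt4 and Wnt5, the BMP ligands dpp and scw with their secreted antagonist sog, and spi and its antagonist aos of the EGFR pathway.

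Among the 17 receptors and membrane proteins 5 had a summit, 29.4%, against the same 17.2%. The strongest peak of any member was at ed, Echinoid, an adhesion protein of the immunoglobulin superfamily that dampens EGFR signalling (FBgn0000547). The peak lay on 2L at 4030591 to 4030765 with its summit 687 bp upstream, intergenic, and its signal of 388.64 was rank 88 of 2031. Replicate 1 had 243.49 and replicate 2 had 152.51. After it came boi, a Hedgehog co-receptor (FBgn0040388), on X at 2447828 to 2447982, 30 bp upstream of 1 of its TSSs inside the gene, and in the 5' UTR of a transcript of z, an overlapping gene on the other strand. A signal of 287.02 in the conservative list stood beside 124.41 for replicate 1 and 162.55 for replicate 2.

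The other Hedgehog receptor protein with a summit was smo, Smoothened, the membrane protein that Patched holds inactive (FBgn0003444). Its peak lay on 2L at 277090 to 277499, 287 bp upstream of its TSS, within the 5' UTR of a transcript of CG17078 that starts farther out and upstream of that gene's nearest start. It had a signal of 130.5, and 59.238 and 66.072 in replicates 1 and 2. The Frizzled receptor gene fz3 (FBgn0027343) had a summit 16 bp downstream of a TSS, in its 5' UTR, on X at 769756 to 770165, with a signal of 171.65, and 80.67 and 86.85 in replicates 1 and 2. Its relative fz4 (FBgn0027342), on X at 7110180 to 7110589, had a summit 64 bp upstream, intergenic, and a signal of 92.125, with 54.053 in replicate 1 and 39.69 in replicate 2. The fz4 peak passed in replicate 1's thresholded list and not in that of replicate 2. Without a summit were the receptor N, the Hedgehog receptor ptc and co-receptor ihog, the Frizzled genes fz and fz2, the LRP co-receptor arr, the BMP and activin receptors tkv, sax, babo, put and wit, and Egfr itself. By pathway the counted receptor and membrane protein genes were 2 of 4 for Hedgehog, 2 of 5 for Wnt, 1 of 2 for EGFR, 0 of 1 for Notch and 0 of 5 for BMP. The 1 for EGFR was the adhesion protein gene ed and not Egfr. Of the BMP receptor genes, tkv was in the other thresholded list and in that of each replicate.

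Among the 13 cytoplasmic and processing components 3 had a summit, 23.1%, against 17.2% of all genes. S encodes Star, which carries the precursor of the EGFR ligand Spitz through the secretory pathway (FBgn0003310). Its peak lay on 2L at 1077706 to 1078115, 96 bp upstream and intergenic, with a signal of 229.12, and 90.804 in replicate 1 and 148.27 in replicate 2. Axn, the scaffold of the complex that marks beta-catenin for destruction (FBgn0026597), had a peak on 3R at 30022262 to 30022363, 550 bp upstream and intergenic. It had 179.68 in the conservative list, 71.48 in replicate 1 and 119.08 in replicate 2. mib1, a ubiquitin ligase that acts on Notch ligands (FBgn0263601), had its summit exactly at its TSS, in the 5' UTR, on 3L at 16011607 to 16012016. The conservative list gave it 123.89, replicate 1 gave 40.549 and replicate 2 gave 84.128, the widest gap towards replicate 2 among the members. The components without a summit were neur and Nct of the Notch pathway, disp, fu and Su(fu) of the Hedgehog pathway, dsh, arm, Apc and Apc2 of the Wnt pathway, and the inhibitory Smad gene Dad.

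Among the 14 transcription factors and cofactors 3 had a summit, 21.4%, against 17.2% of genes overall. Su(H) encodes the DNA-binding protein through which Notch acts (FBgn0004837). Its peak on 2L at 15039382 to 15039533 had its summit 40 bp upstream, intergenic, and a signal of 249.2, with 103.89 in replicate 1 and 139.1 in replicate 2. mam, Mastermind, the co-activator that joins Su(H) and the cleaved receptor (FBgn0002643), had a peak on 2R at 13990904 to 13991313, 94 bp upstream and intergenic, with a signal of 147.3. Replicate 1 had 57.456 there, while replicate 2 had no candidate within 200 bp of the summit and none above 15.1 within 1000 bp of a TSS, so of the single replicates replicate 1 alone held it. shn, Schnurri, a zinc finger protein that works with Mad and Med (FBgn0003396), had a peak on 2R at 11197340 to 11197749, in an intron, 731 bp upstream of an internal TSS. The signal reached 140.44, and 61.799 and 75.47 in the single replicates 1 and 2.

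The cofactor of Su(H) that acts as co-repressor, H, had no summit, so 2 of 3 Notch factors were counted. Neither the Hedgehog effector ci nor the Wnt factor pan with its partners lgs and pygo was counted, and neither were the Smad genes Mad, Med and Smox, the repressor brk, or the ETS factors pnt and aop of the EGFR pathway. By pathway the counts were 3 of 9 for Notch (33.3%), 2 of 7 for EGFR (28.6%), 4 of 17 for Wnt (23.5%), 2 of 9 for Hedgehog (22.2%) and 2 of 15 for BMP (13.3%), against 17.2% of all protein-coding genes. The 2 of the BMP group were shn and the activin-type ligand gene Actbeta. These groups are small and genes are not replicates of a pathway or role, so the order of the shares is a description and was not tested. IDR, the irreproducible discovery rate, ranks peaks by how well they repeat. At a global IDR of 0.001 the count over all members was 8 and that of the receptors 3. No share of all genes was taken at that setting, so these counts have no background beside them.

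**Figure D2:**
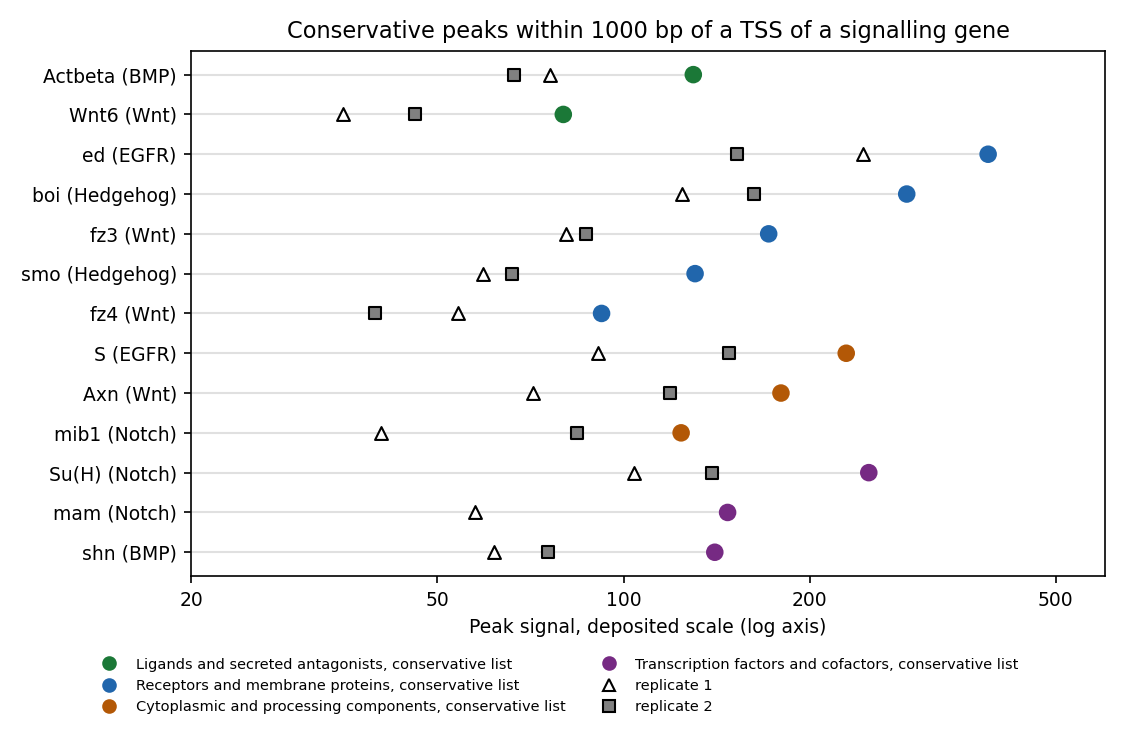
Signal (x axis, log scale, deposited units) of the conservative peak (circle, coloured by role) and of replicate 1 (triangle) and replicate 2 (square) at each of the 13 signalling genes with a summit within 1000 bp of a TSS. The conservative signal ran from 79.89 at Wnt6 to 388.64 at ed, and mam has no square because replicate 2 had no candidate there. Replicate 2 was the higher replicate at 9 genes and replicate 1 at Actbeta, fz4 and ed. Over all conservative peaks with both signals, replicate 1 was the higher at 38.7%.

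The 13 peaks were of ordinary strength for promoter peaks. Their median signal was 147.3, against 138 for all 1731 promoter peaks, whose quartiles were 94.8 and 220. Above that median lay 8 of the 13, and the ranks ran from 88 to 1654. In the receptor group the median was 171.65, in the component group 179.68 and in the transcription group 147.3, over 5, 3 and 3 peaks.

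Both replicates placed most of these peaks in their own thresholded lists. That held for 10 of 13 peaks, against 60.1% of all promoter peaks, with mam and fz4 in the list of replicate 1 alone and Wnt6 in neither. Counted from a single replicate's list, 13 of 49 members had a summit near a TSS in replicate 1, against 14.6% of genes with a candidate. In replicate 2 it was also 13 of 49, against 18.2% of genes. These were not the same genes throughout, since replicate 1's list kept 12 of the 13 and added tkv, while replicate 2's kept 10 and added neur, Nct and tkv.

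At the 12 peaks with a signal in both replicates the log2 ratio of replicate 1 to replicate 2 ran from -1.05 at mib1 to 0.67 at ed, with a median of -0.34. Across all 1910 conservative peaks with both signals the median was -0.16, the quartiles -0.52 and 0.23, and the SD 0.57. The replicates may not share a scale, so these ratios place a gene only among the peaks. The ratio at ed was above that of 92.5% of peaks, and the ratio at mib1 above that of 4.29%. Spearman's rho between the replicates was 0.86 over the 12 peaks and 0.71 over all 1910, given without a test because the peaks were selected for ranks that repeat.

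**Figure D3:**
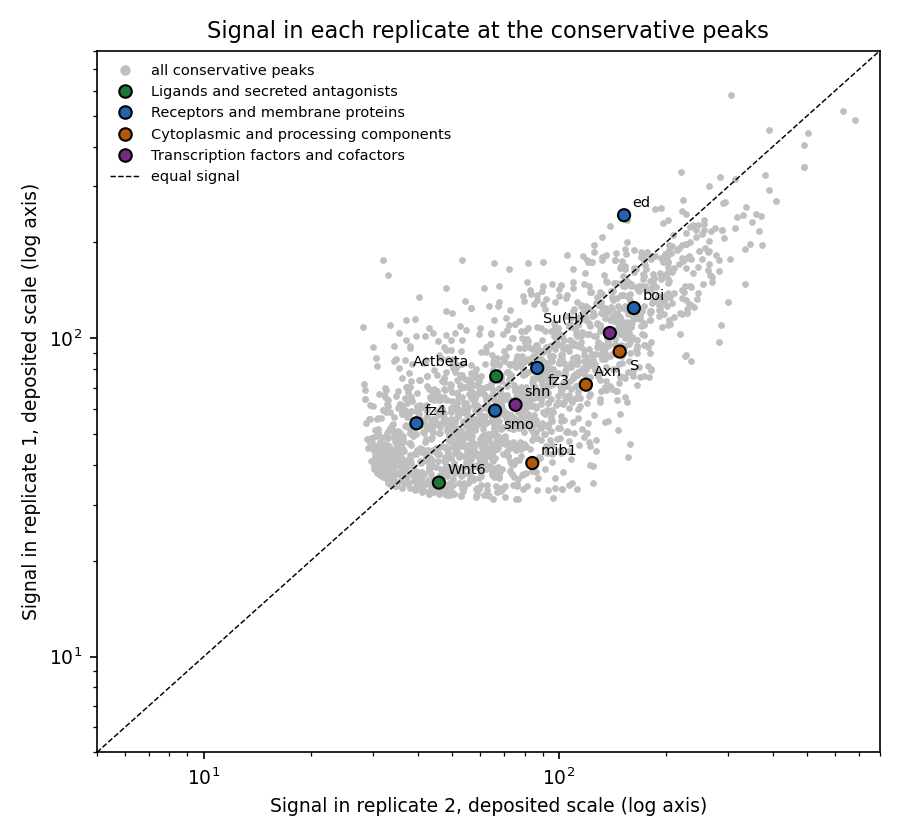
Signal in replicate 1 (y axis) against replicate 2 (x axis), both on log scales in deposited units, for 12 signalling genes (coloured by role, named) and for the 1910 conservative peaks with both signals (grey), with a dashed line at equal signal. Below the line, where replicate 2 was higher, lie 9 of the 12 genes, mib1 farthest from it, and above it lie fz4, Actbeta and ed. Of all 1910 peaks, 38.7% had the higher signal in replicate 1.

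Summits lay mostly just upstream of the start. Of the 13, 11 were upstream of the nearest TSS of their gene, against 75.6% of all promoter peaks taken at their own nearest TSS. The median distance was 94 bp, 8 summits were within 100 bp, and 3, at Axn, ed and shn, were over 500 bp away. Within 500 bp of a TSS the count was therefore 10 of 57, with no share of all genes taken at that window. Each of the 13 genes had a peak of its own, and no peak was shared between members.

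Several summits stood close to starts of other genes as well, so that the list alone does not tie the peak to 1 gene. At boi the summit lay 30 bp from its TSS and 34 bp from that of z, Zeste, a DNA-binding protein, on the other strand. At S it was 96 bp from the start of S, against 37 bp from that of ast, and at smo it was 287 bp from smo, against 83 bp from CG17078. At Axn the summit was 550 bp from the start of Axn, against 71 bp from that of Mgat2, an N-glycan transferase, and 356 bp from that of RpS28a. The neighbours of Su(H), CIAPIN1 at 587 bp, and of mam, RN-tre at 402 bp, were farther than the members' own starts. All of these neighbours were on the strand opposite to the member. The TSS of another protein-coding gene lay within 1000 bp at 6 of 13 member peaks, 46.2%, against 53.7% of all promoter peaks.

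Where only the gene with the nearest TSS was counted, smo, Axn and S dropped out and 10 of 49 members were left, 20.4%, against 13.1% of genes. Among the counted members the own TSS was the nearest at 76.9%, against 68.1% of all counted genes. The 7 peaks at mib1, Wnt6, fz3, fz4, Actbeta, shn and ed had no TSS of another protein-coding gene within 1000 bp. Starts of non-coding genes were not looked for.

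**Figure D4:**
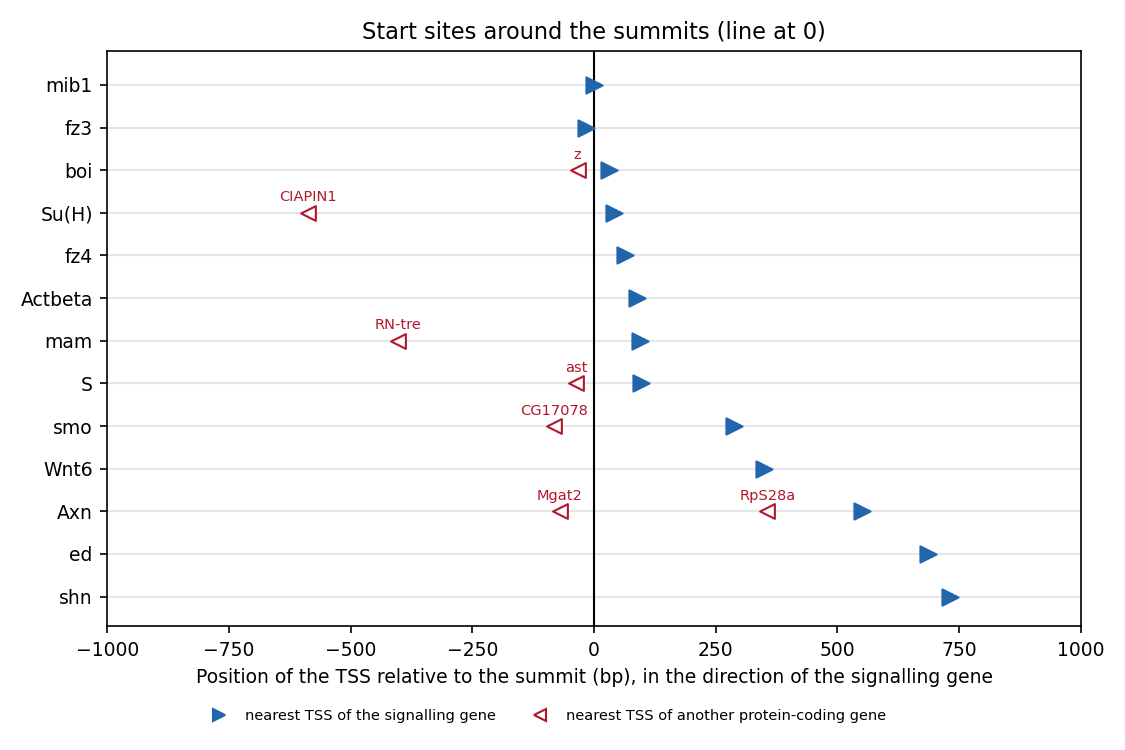
Position of TSSs relative to the peak summit (x axis, bp, in the direction of transcription of the signalling gene, summit at 0) at the 13 signalling genes with a summit, with filled symbols for the nearest TSS of the signalling gene and open ones for other protein-coding genes. Start sites of other genes stand within 1000 bp at boi, Su(H), mam, S, smo and Axn, and at S, smo and Axn one of them is nearer to the summit than the signalling gene's own.

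Inside the genes there was little beyond the starts. A conservative summit lay between the ends of 4 of 57 members, mib1, boi, fz3 and shn, 7.02%, against 5.41% of all protein-coding genes, whose median length was shorter. Over 1000 bp from every TSS of the gene there was 1 member, shn, 1.75%, against 1.42% of genes. That further peak of shn lay in an intron on 2R at 11165727 to 11166136, 6846 bp from its nearest TSS, with a signal of 98.715, and 61.0 and 41.163 in replicates 1 and 2. The other thresholded list made from both replicates added a weaker one in an intron of shn, with a signal of 61.99, 2196 bp from a TSS.

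The 44 members without a conservative summit near a TSS often had weaker candidates there. In 8 of them, Dl, H, ci, arr, pan, lgs, Dad and Med, the ranked list behind the conservative list held no candidate within 1000 bp, 14.0% of members against 10.7% of genes. Of these, ci, pan and lgs are on chromosome 4. In the other 36 the strongest candidate had a signal between 19.6 and 82.7, with a median of 44.4, against a median of 35.3 for all genes without a summit. Their percentiles among the 146877 candidates that did not pass ran from 50.5 to 99.9, with a median of 94.1, against 84.9 for such genes, and 21 of the 36 were above the 90th. A gene with more TSSs holds more candidates and so a higher maximum, and the part of this in the difference was not tested.

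The 3 strongest of these candidates were at neur, a ubiquitin ligase for Notch ligands (82.7), spi, the main EGFR ligand of the embryo (67.7), and tkv, a type I receptor for BMP ligands (67.0). The lowest were at Wnt4 (19.6) and Wnt5 (22.0). By role the medians were 46.1 for ligands, 44.1 for receptors, 35.2 for components and 43.9 for transcription factors. From a TSS of these 44 genes to the nearest conservative summit it was 1234 bp at babo and 337600 bp at ci, with a median of 22161.5 bp, and 5 genes had one within 5000 bp. No such distance was taken for other genes, so whether these are ordinary is not known.

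At a few genes the lists differed. The other thresholded list made from both replicates added 4 members, neur, fz, Apc and tkv, for a count of 17. At neur it held a pair of summits, 546 bp downstream (82.7) and 198 bp upstream (80.4). Replicate 2 had 49.3 at the downstream and 57.7 at the upstream site and replicate 1 had 31.2 and 26.3, so replicate 2 was higher at both. At fz the summit was 61 bp upstream (65.1), with 35.3 in replicate 1 and 26.9 in replicate 2. At Apc it was 90 bp upstream (67.9), with 30.1 in replicate 1 and no candidate within 200 bp in replicate 2. Nct entered through replicate 2's list alone, with 52.7 at exactly 1000 bp upstream, against 27.9 in replicate 1.

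The replicates named different starts of tkv. Replicate 1's list had a summit 585 bp from 1 TSS with a signal of 50.2, where replicate 2 had 14.2. Replicate 2's list had a summit 34 bp from another TSS with 62.4, where replicate 1 had no candidate within 200 bp. An intron of tkv also held a site (2L, 5240611 to 5241020), 1804 bp from a TSS, with 116.84 in replicate 1 against 23.418 in replicate 2. It had a signal of 137.57 in the other thresholded list and was not in the conservative one.

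Further genes of the same pathways gave a similar share. Of 64 listed, 56 had a candidate near a start, and among these 12 had a conservative summit, 21.4%, against the 19.2% of all genes with a candidate. Over all 64, with or without a candidate, the share was 18.8%, against 17.2% of all genes, and the counts by pathway are given over all 64. In the Notch pathway these were 4 of 15, the gamma-secretase subunit gene pen-2 (121.27), the ubiquitin ligase Su(dx) (166.08), and the co-repressors gro (127.94) and CtBP (44.92). In the Hedgehog pathway 1 of 8 was counted, the glypican gene dlp (204.83). In the Wnt pathway 1 of 11 was counted, the kinase CkIalpha (289.12), with 118.69 and 168.73 in replicates 1 and 2. In the BMP pathway 4 of 12 were counted, the ligand gbb (192.75), the secreted modulator cv (79.381), the protease tok (118.12) and the ubiquitin ligase Smurf (271.65). In the EGFR pathway 2 of 18 were counted, the ligand Krn (285.66) and the kinase Raf (109.13). At 9 of the 12 the own TSS was the nearest, and the median signal was 147.0. The CtBP peak lay 926 bp from a TSS and was in neither replicate's thresholded list. It had 31.209 in replicate 2 and no candidate within 200 bp in replicate 1. The Raf peak was in the thresholded list of replicate 1 alone.

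Short words near the summits were counted within 100 bp on both strands. CGATA, chosen after earlier results of these data were seen, was found at 10 of 13 member peaks, 76.9%, against 82.5% of the 1731 promoter peaks. It was absent at Wnt6, shn and ed. The palindrome TATCGATA, which the promoter factor DREF binds, was found at Su(H), smo, boi, fz3, fz4 and Actbeta, 6 of 13 or 46.2%, against 33.1% of promoter peaks. At least 3 copies of CGATA, with both strands of a palindrome counted, stood at 7 member peaks, against 45.6% of promoter peaks, and the nearest copy was 1 to 20 bp from the summit at the 10 genes.

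The Ken consensus from in vitro selection, read as GNGAAAG or GNGAAAT, was found at smo, Axn, Actbeta, ed and S, 5 of 13 or 38.5%, against 23.1% of promoter peaks. TTCNNNGAA, the site of STAT92E, the factor of the JAK-STAT pathway, was found at Wnt6 alone, against 5.95%. GGTCACACT, known as Motif 1, was found at smo alone, against 5.03%, and CAGCTG at Axn alone, against 12.9%. CTTTGA, a word like the site of the Wnt factor Pangolin, was found at Wnt6 and fz4, against 9.01%. TGGGAA, a word like the site of Su(H), was found at mam and Axn, against 8.61%, and AGAGAG at 0 of 13, against 6.07%. With 13 peaks, 1 gene is 7.69%, so none of these shares was placed above or below the promoter peaks.

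In promoters, from 250 bp before to 50 bp after any TSS, CGATA was present in 35 of 57 members, 61.4%, against 53.1% of all genes. Of the 35 members with it 11 had a conservative summit near a TSS, and of the 22 without it 2 did, Wnt6 and ed. Over all genes the shares with a summit were 28.6% with the word and 4.27% without. TATCGATA was present in 9 member promoters, 5 of them with a summit, against 60.1% of all genes that hold it. The 4 without were dsh, pygo, tkv and sax, whose strongest candidates reached 50.4, 50.3, 67.0 and 46.8. AGAGAG was in 36.8% of member promoters, against 18.5% of all genes, TGGGAA in 33.3% against 20.3%, and Motif 1 in 17.5% against 6.77%. STAT92E sites were in 14.0% against 11.6%, CTTTGA in 21.1% against 21.2%, and CAGCTG in 12.3% against 22.3%. The Ken consensus was in 49.1% against 40.3%. Over all genes, 18.2% of those with the Ken consensus had a summit, against 16.5% of those without.

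The ed peak stood apart from the other members in sequence as well as in signal. Of the 86 words of 16 bases in that stretch, 36 occurred at least 10 times in the assembly, and the most frequent occurred 473 times. In the windows of the other 12 member peaks 0 words did so, and the most frequent word of any of them occurred 8 times. Among all 2031 conservative peaks on the main arms, 57 windows, 2.81%, held at least 20 such words. The measure was chosen after the sequence of ed was seen, and the treatment of reads from repeated sequence was not given in the sources used here. Its part in the signal at ed was not tested.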

How the data were processed

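Peak lists of 2 biological replicates were read, from the conservative and the other thresholded list made from both, the thresholded list of each replicate and the ranked lists behind them. Per the deposited notes, the authors derived them on dm6 from filtered alignments and a further file. Aligner, peak caller and the role of the control were not given in the sources used here. Deposited signal is the authors' peak strength on an unstated scale. The deposited score is the authors' IDR score, capped at 1000. The authors' ranked lists give the global IDR as −log10, and conservative peaks reached a global IDR of 0.01 or lower, as read from the values. In the pooled ranked lists 16 columns of single inputs, which no header ties to a replicate, were not used.

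Summits were assigned to protein-coding genes and their features of Ensembl release 115, and sequence came from the release 6 assembly. Non-coding genes were not used to call a summit intergenic or to find neighbouring starts. Of the 57 members 56 matched by symbol and 1, Dl, by its annotated name Delta. Replicate signals were those of the nearest candidate summit within 200 bp. Members, roles and lists were chosen with earlier results of these data known. Every member is named, those with a conservative summit near a TSS with full values, the others by range with the 3 strongest candidates. Sequences are those of the 6 strongest of these peaks with a summit outside UTRs, leaving out mam and shn. With 1 group, counts are set beside all genes and no p-value is given. Assignment was tested on placed summits. Python 3.11.15, pandas 2.3.3, numpy 2.4.6 and scipy 1.17.1 were used. Alternatives were another list, single replicates, a stricter IDR, stronger peaks, other windows and other TSS rules.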

Additional observations from a re-analysis of the deposited data

How the results depend on the processing

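The count of 13 members moved over 1.5 times in 1 setting, a global IDR of 0.001, which left 8. It was 17 in the other list from both replicates, 13 to 13 without 1 replicate, 10 in the stronger 50% of peaks, 10 within 500 bp of a TSS, 14 within 2000 bp, where babo was added, 11 with the 5'-most TSS alone and 10 with the nearest TSS alone. At a global IDR of 0.001 the other pathway genes fell to 6, against 12, members with a summit inside to 2, against 4, ligands to 1, against 2, receptors to 3, against 5, Hedgehog genes to 1, Wnt genes to 2 and BMP genes to 1. In the stronger 50% of peaks the other pathway genes were 7, ligands 1 and Wnt genes 2. Within 500 bp BMP and EGFR genes were 1 each. Inside genes, 1 was over 1000 bp from a TSS. Components were 5 in the other list. Without 1 replicate, members inside were 5 to 5, other pathway genes 11 to 12, ligands 1 to 1, components 3 to 5 and Wnt genes 2 to 3. CGATA was found at 10 to 12 summits without 1 replicate, of 14 and 15. Of 82 alternative values 63 were within 1.5 times and 19 moved. Counts cannot change sign, so a reversal was possible for the median log2 ratio of the replicates alone. That ratio was -0.336 with replicate summits within 200 bp and within 100 bp. The stricter settings hold fewer peaks by construction. For the members, shares of all genes were taken only for the main counts, the single replicates' lists and the nearest-TSS rule. Whether members stood above all genes in the other settings is therefore not known. No paired analysis was possible because there is 1 group. Depth was unknown, so a gene without a summit may have one that was not detectable.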
